A study of Homo sapiens with 8 samples.

Results

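The integrin, cadherin and claudin genes of a prostate cancer cell line were followed across 4 treatments. Members were the rows of the deposited expression table whose symbol is ITGA or ITGB with a number, one of the lettered alpha integrins (ITGAV, ITGAE, ITGAL, ITGAM, ITGAX), CDH with 1 or 2 digits, or CLDN with 1 or 2 digits, with antisense rows left out. The rule found 71 of 26443 genes with values: 24 integrins (16 alpha and 8 beta subunits), 23 cadherins and 24 claudins. The rule reads symbols alone.

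The cells were C4-2B, an established castration-resistant line derived from LNCaP prostate cancer cells. All groups were kept for 7 days: DMSO, the solvent control; ENZ, enzalutamide, an antiandrogen drug, at 10 uM; EPZ, EPZ6438, also called tazemetostat, which blocks the histone methyltransferase EZH2, at 1 uM; and Combination, both agents, for which the labels give no separate doses. Each group had 2 RNA-seq libraries of total RNA, 8 in all. Nothing in the labels ties the 2 libraries of a group to separate cultures. The p-values therefore measure only the spread between these libraries, which may be technical, and the results are limited to 1 line.

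Integrins are receptors for the extracellular matrix, each built of 1 alpha and 1 beta subunit, and the pair decides which matrix protein is bound. Classical cadherins hold neighbouring cells together through calcium-dependent binding and attach to actin through catenins. Claudins are membrane proteins of the tight junction that seal the space between epithelial cells or form ion channels in it. Luminal prostate epithelium is known for E-cadherin and for claudins 3, 4 and 7, and loss of integrin beta 4, a basal cell laminin receptor subunit, is a known feature of prostate carcinoma.

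Levels are FPKM, fragment numbers divided by gene length and library size, so they can be compared between genes. Depth, estimated from the low values, was 15.4 to 24.4 (in units of 1e6 fragments), which makes 1 fragment of a 1 kb gene equal to 0.041 to 0.0648 FPKM. FPKM summed over all genes came to 314611 and 318599 with DMSO, 276531 and 283211 with ENZ, 288954 and 296532 with EPZ, and 218646 and 224223 with Combination, while genes listed at 0 made up 36.0% to 37.4% of rows in DMSO and 29% to 30.3% in Combination. These shifts in the distribution went with the groups, so a change in Combination against DMSO is also given after quantile normalization, which forces a common distribution. This is done where it alters the call or moves the value by over 1.5 times. For Combination against ENZ or EPZ it is given for some genes only, so the other calls there may also depend on the scaling. All 8 luminal prostate markers checked averaged 1 FPKM or more, among them KLK3 and KRT8, while none of the 4 basal, 6 leukocyte, 5 endothelial or 5 neuroendocrine markers and 1 of the 7 stromal markers (COL1A1) did. The summed neuroendocrine markers were 0.357 to 0.364 FPKM with DMSO, 0.294 to 0.541 with ENZ, 1.16 to 1.44 with EPZ and 0.851 to 0.868 with Combination, mostly SYP, which reached 1.25 and 1.07 FPKM with EPZ.

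Promoter sequences are shown for 3 claudins that differ in level and response: CLDN1 and CLDN11, which were near 0 in DMSO and higher in Combination, and CLDN7, which was abundant and lower in Combination as deposited but higher after quantile normalization. Each is the 250 bases before the first RefSeq start listed (GRCh38.p14), printed 5′ to 3′ on the gene's strand, with CG dinucleotides in capitals. The regions are chr3:190322447-190322696 on the minus strand, chr3:170418618-170418867 on the plus strand and chr17:7263214-7263463 on the minus strand.
CLDN1: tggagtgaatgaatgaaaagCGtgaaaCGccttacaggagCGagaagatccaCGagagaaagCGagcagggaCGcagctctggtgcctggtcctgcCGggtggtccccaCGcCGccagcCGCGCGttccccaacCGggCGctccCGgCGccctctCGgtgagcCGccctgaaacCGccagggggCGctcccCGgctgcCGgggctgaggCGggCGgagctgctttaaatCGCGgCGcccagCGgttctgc
CLDN11: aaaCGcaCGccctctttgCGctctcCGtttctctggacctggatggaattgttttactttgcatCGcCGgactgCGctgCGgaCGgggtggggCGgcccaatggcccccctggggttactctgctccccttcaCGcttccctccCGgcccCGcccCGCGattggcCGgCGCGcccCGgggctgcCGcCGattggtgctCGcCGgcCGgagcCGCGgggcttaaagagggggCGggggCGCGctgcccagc
CLDN7: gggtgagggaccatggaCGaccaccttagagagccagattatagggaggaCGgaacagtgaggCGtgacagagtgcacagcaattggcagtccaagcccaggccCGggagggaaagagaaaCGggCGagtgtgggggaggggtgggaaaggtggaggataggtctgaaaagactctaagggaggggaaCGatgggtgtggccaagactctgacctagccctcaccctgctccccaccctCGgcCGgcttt
The printed stretches hold 28, 29 and 9 CG dinucleotides. Over the whole window of 300 bases (250 before and 50 after the start) the counts were 31 for CLDN1, 36 for CLDN11 and 10 for CLDN7, against a median of 14 over all 35116 promoters in the RefSeq table. The windows of CLDN4 and CDH18 held 5 each, so at the starts used both CG-rich and CG-poor promoters were found among the genes that rose. Only the first start listed was used, although 19 members had more than 1. The CLDN4 window (73830746 to 73831045) and the printed CLDN7 stretch lie inside the GENCODE spans given below for these genes, so other starts lie upstream. The printed CLDN1 and CLDN11 stretches overlap the first bases of their GENCODE spans, which begin at 190322475 (minus strand) and 170418865 (plus strand). The CLDN1 stretch also holds the GENCODE start of its neighbour CLDN16 (190322541, plus strand), so it is not upstream of CLDN1 alone. A promoter was listed for 47 of the 71 members. The 12 of these that belong to genes averaging 1 FPKM or more held a median of 13.5 CG (5 to 39), and the 35 of less expressed genes held a median of 8 (0 to 43).

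Of the 71 members, 19 averaged 1 FPKM or more over the 8 libraries and were tested among 11874 such genes: 9 integrins, 3 cadherins and 7 claudins. Of the 52 others, 29 stayed under 0.1 FPKM in every library and 5 were listed at 0 in all 8: CDH2 (N-cadherin), CDH16, CLDN17, CLDN22 and CLDN24. Changes are differences of group means on the log2(FPKM + 1) scale, which understates the change of low genes, with the standard error (SE) and the Benjamini-Hochberg adjusted p of limma's moderated test over all 11874 genes, called at 0.05.

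**Figure D1:**
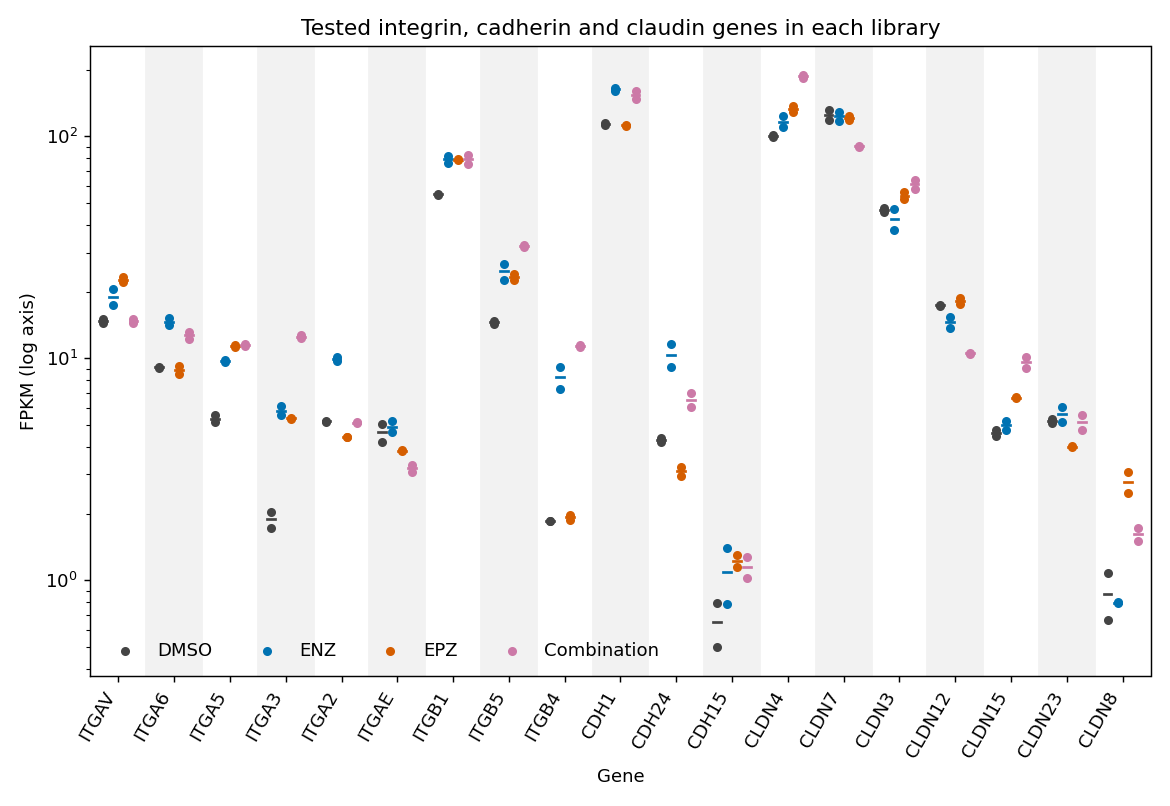
FPKM (log axis) of the 19 tested genes in each of the 8 libraries, 1 point a library and a line at the mean of each group, ordered by family and level. E-cadherin (CDH1), CLDN4, CLDN7 and ITGB1 lie highest, and ITGA3 and ITGB4 show the widest separation between groups.

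After ENZ, 11 of the 19 tested members were higher and 1 was lower, and 8 of the 11 were integrins. Over all tested genes, 27.9% were called higher and 28.8% lower. The median change of the 19 was 0.34, against 0.0049 for all tested genes. After median-of-ratios scaling, which lowered the share of higher genes among all calls from 49.2% to 39.0%, 10 members were higher and 1 lower.

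With EPZ, 9 members were higher and 3 lower, where 23.4% of all genes were called higher and 32.4% lower. Their median change was 0.21, against -0.046 over all genes. The 9 higher were 5 integrins, 1 cadherin and 3 claudins. Of these, CDH15 and CLDN8 had DMSO means of 0.647 and 0.872 FPKM and passed the filter only through treated groups. The count, the median and the p-values take no account of that selection.

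In Combination, 13 members were higher and 3 lower, against a background of 33.3% higher and 47.4% lower. The median change was 0.44 for members and -0.15 for all genes, and quantile normalization moved the latter to -0.023 with 13 members higher and 2 lower. CDH15 and CLDN8 were again among the 13 higher as deposited, with the same limit from the filter. The 3 treatments share the DMSO libraries, so their changes are not independent of each other.

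**Figure D2:**
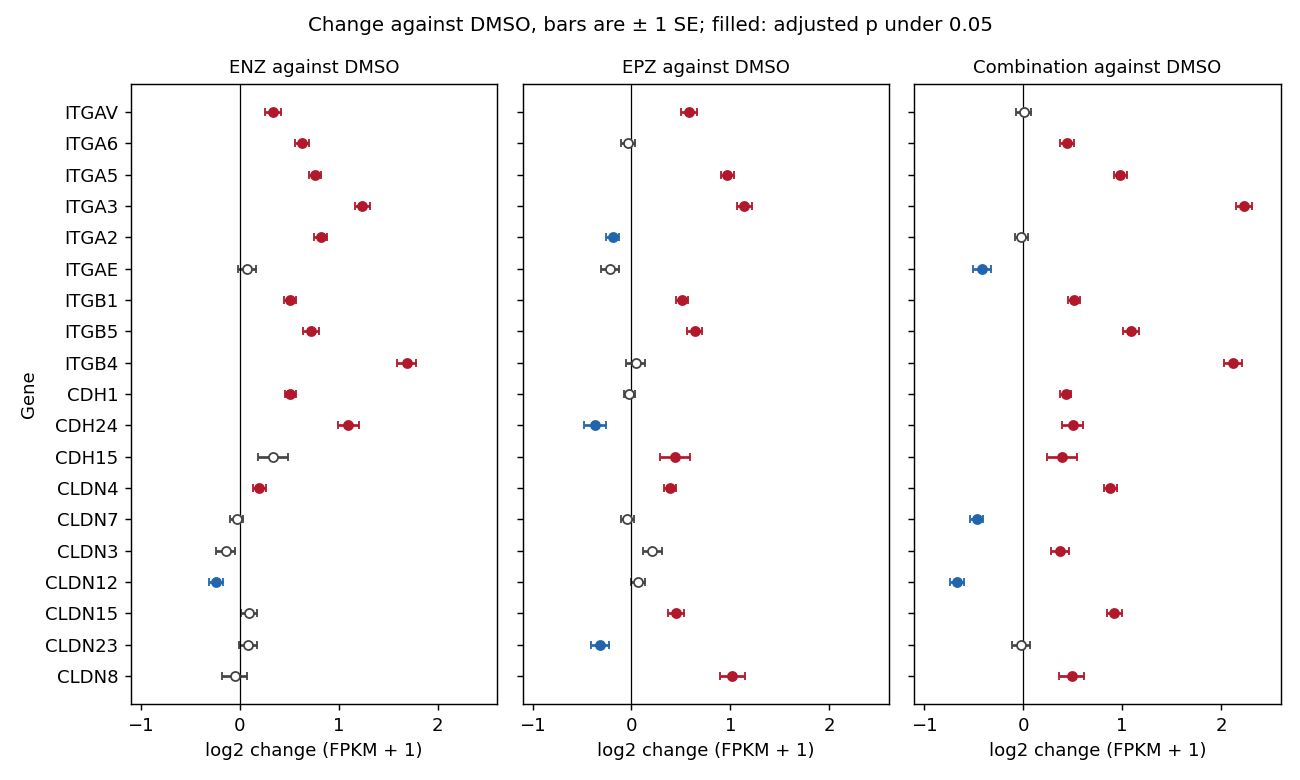
Change against DMSO on the log2(FPKM + 1) scale, ± 1 SE, for the 19 tested genes in the 3 treatments, with filled points where the adjusted p was under 0.05 (red higher, blue lower). In ENZ, 8 integrins and 2 cadherins are filled above 0, while in Combination 4 claudins are filled above 0 and 2 below, of which CLDN7 turns positive after quantile normalization.

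Among the tested alpha integrins, ITGA3, the laminin-binding partner of beta 1, had the largest rise in each of the 3 treatments. The gene lies on chromosome 17 (50055968 to 50090481, plus strand, ENSG00000005884.17, GENCODE 29, GRCh38). Its level was 1.73 and 2.04 FPKM with DMSO, 6.08 and 5.57 with ENZ, 5.35 and 5.38 with EPZ, and 12.3 and 12.7 with Combination. Each treated library was above both DMSO libraries, and both Combination libraries were above all others. The change against DMSO was 1.24 (SE 0.0779, limma adjusted p = 1.92e-06) in ENZ, 1.14 (adjusted p = 3.79e-06) in EPZ and 2.23 (adjusted p = 4.28e-09) in Combination. Its share of all alpha-subunit FPKM was 4.5% ± 0.518 (SD, n = 2) with DMSO and 20% ± 0.16 with Combination.

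ITGA5, the alpha subunit of the fibronectin receptor, stood at 5.55 and 5.15 FPKM with DMSO, 9.85 and 9.59 with ENZ, 11.3 and 11.5 with EPZ, and 11.6 and 11.4 with Combination. The treated groups did not overlap with DMSO, while EPZ and Combination overlapped with each other. The changes were 0.76, 0.97 and 0.98 (SE 0.0635 each, adjusted p at most 1.25e-05 in limma). ITGA6, which pairs with beta 1 or beta 4 to bind laminin, was 9.17 and 9.08 FPKM with DMSO, 14.1 and 15.2 with ENZ, 8.54 and 9.27 with EPZ, and 12.2 and 13.2 with Combination. It rose in ENZ (0.63, adjusted p = 7.11e-05) and Combination (0.44, adjusted p = 0.000247), and the EPZ libraries lay on either side of DMSO.

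ITGA2, the alpha subunit of a collagen receptor, gave 5.25 and 5.19 FPKM with DMSO, 9.76 and 10.2 with ENZ, 4.44 and 4.43 with EPZ, and 5.17 and 5.1 with Combination. Both ENZ libraries were above the other 6. The rise in ENZ was 0.82 (SE 0.0644, limma adjusted p = 8.61e-06), and the Combination change was -0.021 (adjusted p = 0.774). The fall in EPZ was small (-0.19, adjusted p = 0.0273) and lost its call when any 1 library of DMSO or EPZ was left out (adjusted p 0.0914 to 0.116).

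ITGAV, which joins several beta subunits to bind vitronectin and other RGD proteins, was 15.0 and 14.5 FPKM with DMSO, 17.4 and 20.5 with ENZ, 22 and 23.2 with EPZ, and 14.5 and 15.1 with Combination. Both single agents were above DMSO, by 0.34 (adjusted p = 0.00514) and 0.58 (adjusted p = 0.00022), while Combination and DMSO overlapped. The Combination change was 0.0039 (SE 0.0788, limma adjusted p = 0.965) as deposited and 0.29 (adjusted p = 0.00774) after quantile normalization. ITGAE, known from intraepithelial lymphocytes as the E-cadherin receptor subunit, was 4.2 and 5.09 FPKM with DMSO, 4.64 and 5.21 with ENZ, 3.84 and 3.85 with EPZ, and 3.09 and 3.31 with Combination. It fell in Combination (-0.42, limma adjusted p = 0.0019), and the EPZ change of -0.22 did not pass the test (adjusted p = 0.0739). The 6 leukocyte markers summed to 0.162 to 0.214 FPKM with DMSO, 0.0814 to 0.125 with ENZ, 0.31 to 0.678 with EPZ and 0.231 to 0.427 with Combination. LYZ was the highest of them, at 0.414 FPKM in 1 EPZ library, while PTPRC was at most 0.0412 FPKM and CD3E was listed at 0 in all 8. The part of these markers in the ITGAE values was not tested.

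Among the beta integrins, ITGB1, the common partner of many alpha subunits, was the most abundant. It gave 54.6 and 55.2 FPKM with DMSO, 75.8 and 82.0 with ENZ, 78.8 and 78.0 with EPZ, and 75.4 and 82.1 with Combination. All 6 treated libraries were above DMSO and the 3 treated groups overlapped. The rise was 0.51 in each treatment (SE 0.0609, adjusted p at most 0.000107 in limma), and 1.16 with Combination after quantile normalization. ITGB5, which pairs with alpha V, rose by 0.72 with ENZ, 0.64 with EPZ and 1.09 with Combination (1.51 after quantile normalization). Its levels were 14.8 and 14.3 FPKM with DMSO, 26.7 and 22.6 with ENZ, 24.0 and 22.5 with EPZ, and 32.3 and 31.7 with Combination, so the single agents overlapped and Combination lay above both.

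ITGB4, the hemidesmosomal laminin receptor subunit that pairs with alpha 6, separated the treatments with ENZ from those without. The gene is on chromosome 17 (75721328 to 75757818, plus strand, ENSG00000132470.13). Both DMSO libraries were at 1.85 FPKM, EPZ at 1.88 and 1.98, ENZ at 9.14 and 7.29, and Combination at 11.3 and 11.5. ENZ raised it by 1.69 (SE 0.0949, limma adjusted p = 9.52e-07) and Combination by 2.12 (adjusted p = 2.08e-08), while the EPZ change was 0.042 (adjusted p = 0.73). ITGB4 took 2.55% ± 0.012 (SD, n = 2) of beta-subunit FPKM with DMSO, 7.25% ± 1.13 with ENZ, 1.84% ± 0.098 with EPZ and 9.18% ± 0.234 with Combination. The summed FPKM of all beta subunits was 72.3 to 72.7 with DMSO, 113 to 114 with ENZ, 104 to 106 with EPZ and 121 to 127 with Combination, so all treated libraries were above DMSO.

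**Figure D3:**
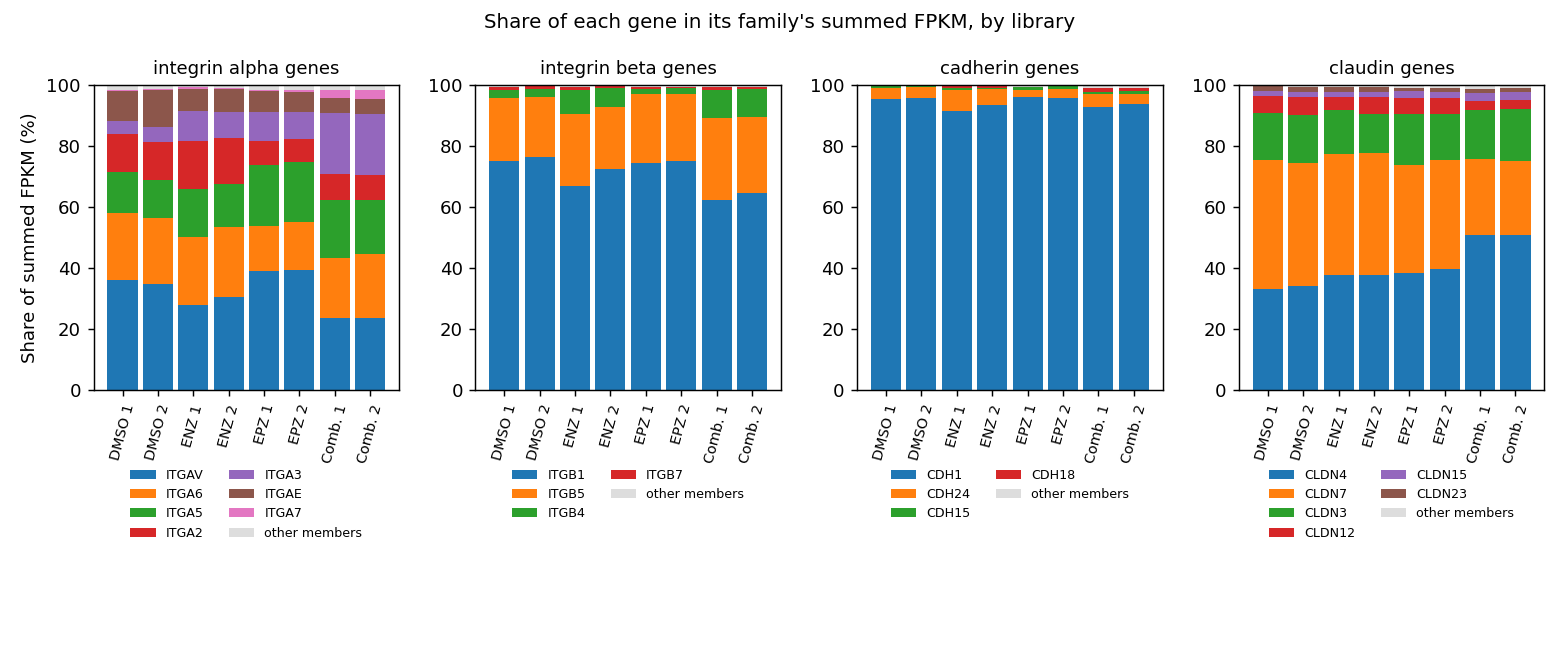
Share (%) of each gene in the summed FPKM of its family in each library, for integrin alpha, integrin beta, cadherin and claudin genes. ITGA3 and ITGB4 are widest in Combination, CDH1 fills over 90% of the cadherin bar in all 8 libraries, and CLDN4 grows to 50.6% and 50.9% of the claudin bar in Combination.

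E-cadherin, CDH1, made up nearly all cadherin RNA in the line: 91.4% to 95.8% of cadherin FPKM in the 8 libraries. The gene is on chromosome 16 (68737225 to 68835548, plus strand, ENSG00000039068.18), and CDH3 lies 14608 bases before it. CDH1 was 115 and 113 FPKM with DMSO, 160 and 166 with ENZ, 113 and 112 with EPZ, and 148 and 161 with Combination. Libraries with ENZ, alone or combined, were above those without. The change was 0.51 (SE 0.0552, limma adjusted p = 6.17e-05) in ENZ and 0.43 (adjusted p = 4.32e-05) in Combination, or 0.79 and 1.11 after quantile normalization. In EPZ it was -0.024 (adjusted p = 0.739) as deposited, and 0.14 (adjusted p = 0.0399) after quantile normalization.

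CDH24, a classical cadherin that binds catenins, was 4.4 and 4.2 FPKM with DMSO, 11.6 and 9.18 with ENZ, 2.94 and 3.25 with EPZ, and 7.01 and 6.04 with Combination. No 2 groups overlapped, with ENZ highest and EPZ lowest. It rose by 1.10 with ENZ (SE 0.108, limma adjusted p = 3.41e-05) and by 0.50 with Combination (adjusted p = 0.00166). The fall in EPZ (-0.37, adjusted p = 0.0154) lost its call without the first DMSO library (adjusted p = 0.0693) or the first EPZ library (adjusted p = 0.0963). CDH15, known as M-cadherin of skeletal muscle, lay near the filter, with 0.794 and 0.5 FPKM with DMSO, 1.4 and 0.786 with ENZ, 1.15 and 1.3 with EPZ, and 1.03 and 1.28 with Combination. The DMSO mean was 0.647 FPKM, so CDH15 passed the filter only through the treated groups, which its p-values take no account of. It was called higher in EPZ (0.44, adjusted p = 0.0335) and Combination (0.39, adjusted p = 0.0356). Without the second DMSO library these became 0.31 (adjusted p = 0.19) and 0.26 (adjusted p = 0.205). In EPZ the call was also lost without either EPZ library (adjusted p 0.0769 and 0.14), and in Combination without its second library (adjusted p = 0.162), while quantile normalization gave 0.24 and 0.025.

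The 3 most abundant claudins, CLDN4, CLDN7 and CLDN3, are typical of simple epithelia. CLDN3 and CLDN4 are neighbours on chromosome 7, with 29271 bases between their GENCODE spans. CLDN4 (73799542 to 73832693, plus strand, ENSG00000189143.9) gave 102 and 99.8 FPKM with DMSO, 123 and 110 with ENZ, 129 and 137 with EPZ, and 184 and 190 with Combination. The 4 groups did not overlap and ran in that order. It rose by 0.39 with EPZ (SE 0.0633, limma adjusted p = 0.000659) and by 0.88 with Combination (adjusted p = 5.85e-07), or 1.58 after quantile normalization. The ENZ change of 0.20 (adjusted p = 0.0229) became 0.12 (adjusted p = 0.107) after median-of-ratios scaling and 0.45 (adjusted p = 0.000238) after quantile normalization. It lost its call without either DMSO library (adjusted p 0.0696 and 0.113) or the first ENZ library (adjusted p = 0.107). CLDN3 was 47.6 and 45.8 FPKM with DMSO, 47.0 and 37.8 with ENZ, 56.0 and 52.0 with EPZ, and 58.2 and 63.5 with Combination. It rose in Combination by 0.37 (adjusted p = 0.00436), or 0.97 after quantile normalization.

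CLDN7 (chromosome 17, 7259903 to 7263983, minus strand, ENSG00000181885.18) was 131 and 119 FPKM with DMSO, 129 and 117 with ENZ, 119 and 124 with EPZ, and 91.0 and 89.8 with Combination. The first 3 groups overlapped, and both Combination libraries were below the other 6. On the deposited values CLDN7 was lower in Combination (-0.47, SE 0.0662, limma adjusted p = 9.49e-05), but after quantile normalization it was higher (0.23, adjusted p = 0.00405), so its direction depends on the scaling. Its share of claudin FPKM, which multiplying a library by a constant does not change, was 41.5% ± 1.33 (SD, n = 2) with DMSO, 39.8% ± 0.304 with ENZ, 35.7% ± 0.176 with EPZ and 24.6% ± 0.709 with Combination. CLDN4 moved the other way, from 33.4% ± 0.68 with DMSO to 50.7% ± 0.163 with Combination.

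CLDN12, a claudin without the usual PDZ-binding tail, was 17.3 and 17.4 FPKM with DMSO, 13.7 and 15.4 with ENZ, 17.5 and 18.8 with EPZ, and 10.5 and 10.6 with Combination. It fell in Combination by 0.67 on the log2 scale (limma adjusted p = 1.1e-05), by 0.41 after quantile normalization. The fall in ENZ (-0.24, adjusted p = 0.0153) lost its call without either DMSO library (adjusted p 0.0615 and 0.0711) or the first ENZ library (adjusted p = 0.0649). CLDN15, a cation channel former in the intestine, rose in EPZ (0.45, adjusted p = 0.000935) and Combination (0.92, adjusted p = 1.92e-06). Its levels were 4.48 and 4.74 FPKM with DMSO, 5.23 and 4.76 with ENZ, 6.7 and 6.63 with EPZ, and 9.06 and 10.2 with Combination, with EPZ and Combination apart from all others.

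CLDN8, a sealing claudin known from the kidney and colon, was 0.665 and 1.08 FPKM with DMSO, 0.798 and 0.791 with ENZ, 2.48 and 3.07 with EPZ, and 1.72 and 1.51 with Combination. EPZ was highest, and Combination lay between it and the other groups. CLDN8 rose by 1.02 with EPZ (SE 0.126, limma adjusted p = 0.000133) and by 0.49 with Combination (adjusted p = 0.00501), where quantile normalization left 0.14 (adjusted p = 0.311). Its means were 0.872 FPKM with DMSO and 0.795 with ENZ, so it passed the filter only through EPZ and Combination. The p-values take no account of that selection. CLDN23 was 5.35 and 5.12 FPKM with DMSO, 6.06 and 5.19 with ENZ, 4.05 and 3.97 with EPZ, and 5.58 and 4.76 with Combination. Its fall in EPZ (-0.32, adjusted p = 0.0147) lost its call without the first DMSO library or either EPZ library (adjusted p 0.0575 to 0.0744).

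Adding EPZ to ENZ was read from Combination against ENZ, where 8 members were higher and 7 lower, with 25.3% of all genes higher and 45.5% lower. ITGA3 (0.99), CLDN15 (0.82), CLDN4 (0.68) and CLDN8 (0.54) had the largest rises, and ITGA2 (-0.84), CDH24 (-0.59), ITGAE (-0.49) and CLDN7 (-0.44) the largest falls, with limma adjusted p of at most 0.00347. CLDN8 passed the filter only through EPZ and Combination, which its p-value here takes no account of. After quantile normalization 10 were higher and 4 lower, with CLDN7 at -0.016 (adjusted p = 0.813) and CLDN4 at 1.12. ITGAV then went from -0.33 to -0.081 (adjusted p = 0.389) and ITGB5 from 0.37 to 0.76. Over all genes the share of calls that were higher moved from 35.7% to 51.0%. ITGA5 (0.22 as deposited, 0.44 after quantile normalization) and ITGA6 (-0.20 as deposited, 0.025 after quantile normalization) lost their calls without the first Combination library (adjusted p 0.0592 and 0.19), and ITGA6 also without the second ENZ library (adjusted p = 0.125).

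Adding ENZ to EPZ was read from Combination against EPZ, where 10 were higher and 4 lower, with 29.2% of all genes higher and 43.7% lower. ITGB4 stood out at 2.08 (SE 0.0949, limma adjusted p = 5.49e-08), followed by ITGA3 (1.08), CDH24 (0.87) and CLDN4 (0.49, or 1.06 after quantile normalization). The 4 falls were CLDN12 (-0.73), ITGAV (-0.58, or -0.36 after quantile normalization), CLDN8 (-0.53) and CLDN7 (-0.43 as deposited, 0.13 after quantile normalization). CDH1 rose by 0.46 (adjusted p = 4.2e-05), or 0.97 after quantile normalization. With that scaling 13 members were higher and 4 lower, where 4113 of all 11874 genes were higher and 4309 lower. CLDN3, not called as deposited (0.17), was then called at 0.61 (adjusted p = 0.000205). ITGA2 (0.17) lost its call without any 1 library of DMSO, EPZ or Combination (adjusted p 0.0539 to 0.12), and CLDN23 (0.30) without the second EPZ library (0.0656) or the first Combination library (0.122), all as adjusted p.

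The interaction is Combination minus ENZ minus EPZ plus DMSO on the log2 scale, so a value under 0 means a combined change below the sum of the single changes. It was called for 3 members above 0 and 6 below, where 9.99% of all genes were above and 29.6% below. ITGAV had the most negative value (-0.92, SE 0.111, limma adjusted p = 0.000205), followed by ITGA5 (-0.74), ITGA2 (-0.64) and ITGB1 (-0.51). As deposited, Combination against EPZ was 0.012 (limma adjusted p = 0.874) for ITGA5 and 0.0053 (adjusted p = 0.941) for ITGB1, but after quantile normalization both were called, at 0.16 (adjusted p = 0.0399) and 0.52 (adjusted p = 5.16e-05). The ITGB1 interaction was then -0.21 (adjusted p = 0.0785). The 3 values above 0 were ITGB4 (0.39), CLDN15 (0.37) and CLDN4 (0.29). Each lost its call in most fits that left out 1 library, at adjusted p up to 0.112 for ITGB4, 0.0899 for CLDN15 and 0.0971 for CLDN4, with the estimates at 0.21 to 0.42. After quantile normalization all 3 were larger and called, at 0.72 (adjusted p = 0.00341), 0.59 (0.00259) and 0.61 (0.000433), and median-of-ratios scaling gave 0.47, 0.45 and 0.38, also called. Quantile normalization moved the median of all genes from -0.12 to 0.011 and the members' calls to 4 above and 4 below. The share of positive values among all called genes moved from 25.2% to 49.3% with it and to 37.0% with median-of-ratios scaling.

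The 52 members under a mean of 1 FPKM were described in a fit without the expression filter, against the 14569 genes under that level. In Combination 18 were called higher and 2 lower, where 18.4% of such genes were higher and 1.87% lower. Some of these calls rest on very few fragments. CDH9, called at 0.026, had 1 and 1 with Combination, and CDH10, called at 0.071, had 2 and 4. In ENZ 3 were higher and 1 lower (background 3.98% and 1.09%), and in EPZ 0 were called by limma (4.4% and 0.686%). At an unadjusted limma p under 0.05, 5 were higher and 1 lower in EPZ. The share of all such genes at that unadjusted threshold was not computed, so these counts have no background. At 0 in the library stood 25 to 28 of these 52 members in DMSO, 23 to 25 with ENZ, 20 to 22 with EPZ and 14 to 16 with Combination. Over all 14569 such genes, 65.1% to 67.6% were at 0 with DMSO and 52.6% to 55% in Combination. For the members it was 48.1% to 53.8% and 26.9% to 30.8%, so the background shares come from emptier rows.

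The interaction was called above 0 for 8 of the 52 and below 0 for 0 by limma, where 4.85% and 1.42% of such genes were. At an unadjusted limma p under 0.05 it was above 0 for 12 and below 0 for 1. No background was computed at that threshold. Because low FPKM move in steps of 1 fragment, the smallest fragment numbers that fit them could be recovered for 40 members. CLDN1, a barrier claudin of stratified epithelia, was 0.0939 and 0.0286 FPKM with DMSO, 0.15 and 0.146 with ENZ, 0.107 and 0.13 with EPZ, and 1.2 and 1.13 with Combination. These stand for 5 and 2 fragments with DMSO, 10 and 11 with ENZ, 9 and 10 with EPZ, and 80 and 64 with Combination. Both Combination libraries were above the other 6. CLDN1, CDH18 and ITGA7 are described because they reached 1 FPKM, which each did with Combination alone, so their Combination values are given with no test.

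CDH18, a type II cadherin known from the brain, was higher in both groups that received ENZ. It gave 0.0164 and 0.0996 FPKM with DMSO, 0.957 and 0.904 with ENZ, 0.0724 and 0.0226 with EPZ, and 1.86 and 1.82 with Combination, or 1 and 8, 73 and 78, 7 and 2, and 142 and 118 fragments. DMSO and EPZ overlapped, ENZ was above both and Combination above all. The change was 0.87 with ENZ (limma adjusted p = 0.0012) and 1.43 with Combination.

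ITGA7, a laminin receptor subunit known from muscle, was 0.132 and 0.134 FPKM with DMSO, 0.365 and 0.25 with ENZ, 0.325 and 0.274 with EPZ, and 1.5 and 1.73 with Combination. Both Combination libraries were above the other 6, with a difference of 1.21 from DMSO. The leukocyte beta subunits ITGB2 (0.383 to 1.04 FPKM) and ITGB7 (0.464 to 1.01 FPKM) reached 1 FPKM in single libraries, and neither was called in any comparison with DMSO.

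**Figure D4:**
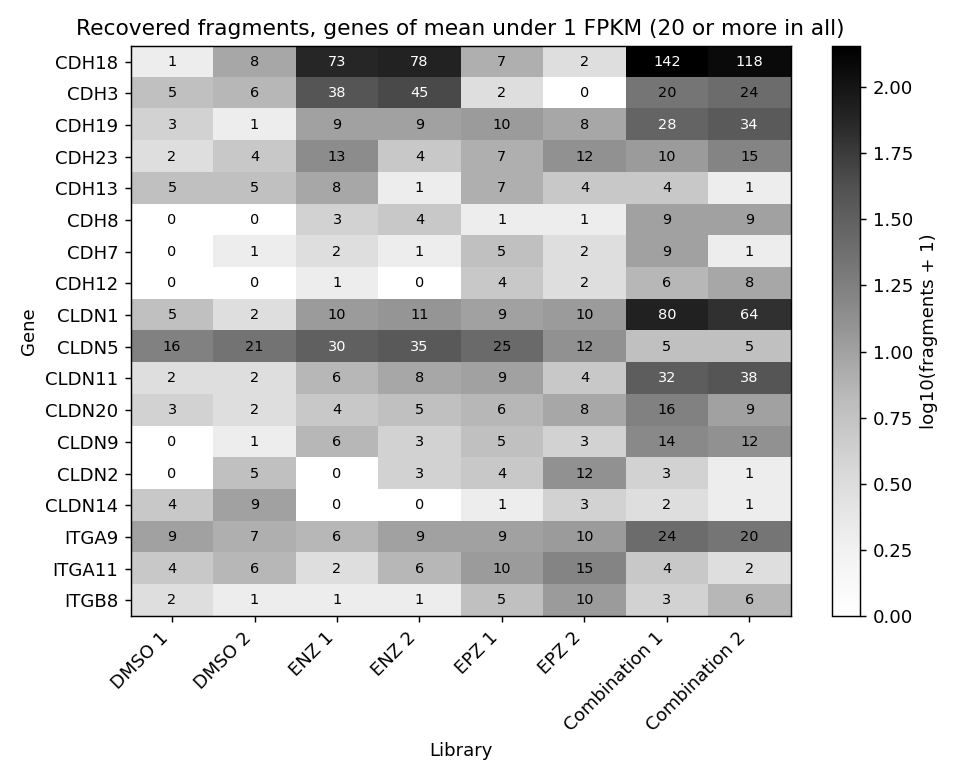
Smallest whole numbers of fragments recovered from the FPKM of genes with a mean under 1 FPKM, for the 18 with 20 or more in all, in each of the 8 libraries (shade: log10 of fragments + 1). CDH18 and CDH3 are dark in ENZ and Combination, CLDN1 and CLDN11 with Combination, and CLDN5 is palest there.

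Further low members were picked out after their values were seen. CDH3 (P-cadherin, the neighbour of CDH1 and a basal cell marker) had 5 and 6 fragments with DMSO, 38 and 45 with ENZ, 2 and 0 with EPZ, and 20 and 24 with Combination. Its level was highest in ENZ, at 0.461 and 0.483 FPKM, where the basal markers KRT5, KRT14 and KRT15 were listed at 0 and TP63 was at 0.00795 and 0.0211 FPKM. CLDN11, the claudin of myelin and Sertoli cells, had 2 and 2 fragments with DMSO, 6 and 8 with ENZ, 9 and 4 with EPZ, and 32 and 38 with Combination, all of the last above the other 6. CLDN5, best known from endothelium, went the other way, with 16 and 21 fragments with DMSO, 30 and 35 with ENZ, 25 and 12 with EPZ and 5 and 5 with Combination. Its Combination change was -0.37. The endothelial marker KDR was listed at 0 in all 8 libraries and PECAM1 was at most 0.0152 FPKM, while VWF was 0.286 to 0.857 FPKM and highest in Combination. The summed stromal markers were 2.54 to 2.66 FPKM with DMSO, 3.88 to 5.06 with ENZ, 3.21 to 3.51 with EPZ and 11.3 to 11.8 with Combination. COL1A1 made up most of it (10.5 and 10.4 FPKM with Combination), while COL1A2 was listed at 0 in all 8. The part of these markers in the low members' values was not tested.

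Genes that work with the 3 families were read from 4 lists. Of all 11874 tested genes, 27.9% were higher and 28.8% lower in ENZ, 23.4% and 32.4% with EPZ, and 33.3% and 47.4% with Combination. After median-of-ratios scaling 2713 of them were higher and 4241 lower in ENZ. After quantile normalization 2706 were higher and 2939 lower in ENZ, 2798 and 3065 with EPZ, and 4483 and 4812 with Combination. Of the tight junction genes other than claudins, 12 of 22 tested were higher and 2 lower in ENZ (11 and 4 after median-of-ratios scaling), 12 and 4 with EPZ, and 16 and 4 with Combination. The Combination median was 0.59, against -0.15 for all genes. After quantile normalization the counts of this list were 9 and 2, 9 and 3, and 16 and 4. Its medians then went from 0.29 to 0.093 in ENZ, 0.21 to 0.14 with EPZ and 0.59 to 0.62 with Combination. F11R, the junctional adhesion molecule A, stood at 29.3 and 30.3 FPKM with DMSO, 46.8 and 46.9 with ENZ, 43.3 and 46.3 with EPZ, and 56.3 and 60.5 with Combination. It rose by 0.64, 0.57 and 0.95 (limma adjusted p at most 4.35e-05), the last of them 1.49 after quantile normalization. CGNL1, a cingulin-like scaffold, rose by 0.74 with ENZ and 1.29 with Combination. TJP1 (ZO-1), the scaffold that binds claudin tails, was 31.8 and 33.0 FPKM with DMSO, 19.2 and 20.9 with ENZ, 27.4 and 26.4 with EPZ, and 14.6 and 15.8 with Combination, every treated library below DMSO. Its change was -0.67 with ENZ (SE 0.0658, limma adjusted p = 3.39e-05) and -1.05 with Combination (adjusted p = 2.23e-07), or -0.65 after quantile normalization. In EPZ the calls of CGNL1 (0.26) and TJP1 (-0.26) were lost after quantile normalization (adjusted p 0.117 and 0.257) and without single libraries: CGNL1 without the first DMSO or either EPZ library (adjusted p 0.0592 to 0.0793), TJP1 without the second DMSO or second EPZ library (0.0577 and 0.0575).

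Of the catenin and nectin genes, 7 of 13 tested were higher and 1 lower in ENZ (4 and 3 after median-of-ratios scaling), 7 and 1 with EPZ, and 8 and 3 with Combination (8 and 1 after quantile normalization). Nectin-4, listed as PVRL4, was 4.44 and 4.31 FPKM with DMSO, 7.14 and 6.68 with ENZ, 9.19 and 9.83 with EPZ, and 16.4 and 15.2 with Combination, with no overlap between groups. Its Combination change was 1.64 (SE 0.0702, limma adjusted p = 1.53e-08). ADAM10, a protease that cleaves E-cadherin, rose by 0.95, 0.63 and 1.36 in the 3 treatments. EPCAM, an epithelial adhesion molecule known to bind CLDN7, was 95.9 and 97.7 FPKM with DMSO and 58.8 and 60.5 with Combination. That change of -0.69 (adjusted p = 5.09e-07) became -0.06 (adjusted p = 0.256) after quantile normalization, so, as for CLDN7, the call depends on the scaling.

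Of the desmosome and hemidesmosome genes, 4 of 11 tested were higher and 3 lower in ENZ, 5 and 2 with EPZ, and 6 and 3 with Combination. In ENZ those counts were near the shares of all genes (27.9% higher and 28.8% lower). DSP (desmoplakin) rose by 0.63, 0.61 and 1.02 (the last 1.55 after quantile normalization), and PPL (periplakin) by 0.63 with ENZ and 1.22 with Combination. The desmosomal plaque gene PKP3 was lower in each treatment, with changes of -0.70, -0.48 and -1.30 (limma adjusted p at most 0.000657), which quantile normalization made -0.47, -0.30 and -0.70. Of the integrin adaptors and kinases, 3 of 20 tested were higher and 5 lower in ENZ, 6 and 5 with EPZ, and 7 and 6 with Combination, where the median was 0.063. After quantile normalization these counts were 7 and 5, 9 and 2, and 14 and 5. Of all 11874 genes that scaling called 2706 higher and 2939 lower in ENZ, 2798 and 3065 with EPZ, and 4483 and 4812 with Combination. CD9, a tetraspanin partner of integrins, rose by 0.51, 0.65 and 0.84, to 509 and 517 FPKM with Combination. After quantile normalization these changes were 0.87, 0.79 and 1.73. The integrin activator FERMT1 (kindlin-1) was lower in EPZ (-0.69) and Combination (-1.57), and PARVB (beta-parvin), which links integrins to actin, in ENZ (-0.54) and Combination (-1.49). Weaker changes were those of FERMT1 with ENZ (-0.27), lost without either DMSO library or the first ENZ library (adjusted p 0.053 to 0.125), and PARVB in EPZ (-0.32), lost after quantile normalization (adjusted p = 0.114).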

How the data were processed

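RNA-seq values from 8 libraries of C4-2B cells were used, with groups and replicate numbers from the sample titles. The authors deposited FPKM per gene, and the file holds no counts. STAR and hg38 are named, without versions, in the submitters' processing notes. The sources used here give no counting tool, annotation or strandedness, so overlapping genes cannot be told apart. Libraries were made from total RNA with a NEBNext Ultra kit, per the labels' protocols. FPKM hold no totals, so depth was estimated from the whole-number steps between low values: for 801 to 1314 genes under 0.1 FPKM per library, 95% to 96.9% had a whole-number ratio to the first DMSO library, with a tolerance of 0.04%. The absolute scale rests on 862 single-transcript genes, and 68.4% of these gave a value within 5% of their median. Fragments recovered for low members are the smallest whole numbers that fit, and a gene seen in 1 library has 1 fragment by construction.

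Values were log2(FPKM + 1) for the 11874 genes averaging 1 FPKM or more. limma 3.58.1 in R 4.3.3 fitted the 4 groups over all 8 libraries, with a variance trend (5.47 prior and 4 residual degrees of freedom), two-sided tests and Benjamini-Hochberg adjustment in each of 6 comparisons. With 2 libraries against 2, an exact permutation test of a single gene cannot go below p = 0.333. The fit was also run on simulated data with independent noise and few changed genes. That run does not cover the shifts in distribution seen here. Depth, sequences and figures used Python 3.11.15, pandas 2.3.3, numpy 2.4.6 and matplotlib 3.10.9.

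Members, lists and tests were chosen with earlier results of these data known. Genes were named with their values if they averaged 10 FPKM or more, were among the 8 highest or lowest called changes against DMSO or the 4 highest or lowest in the other comparisons, or reached 1 FPKM in a library while under the filter. Up to 3 genes of each partner list were named by the smallest p. Sequences and promoter windows are from RefSeq (GRCh38.p14), coordinates from GENCODE 29 (GRCh38). Alternatives were a pseudocount of 0.1, no filter, a minimum mean of 5 FPKM, quantile normalization, median-of-ratios scaling, only the compared groups, a replicate block and leaving out each library.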

Additional observations from a re-analysis of the deposited data

Results flagged for a closer look

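For 9 of the 19 tested members the change with both agents differed from the sum of the 2 single-agent changes, by limma's test of the interaction. Of all 11874 tested genes, 9.99% were called above that sum and 29.6% below it, so such calls were common outside these families too. The combined change was below that sum for ITGAV (-0.92), ITGA5 (-0.74), ITGA2 (-0.64), ITGB1 (-0.51), CLDN12 (-0.48) and CLDN7 (-0.40), and above it for ITGB4 (0.39), CLDN15 (0.37) and CLDN4 (0.29), all on the log2(FPKM + 1) scale. The calls of ITGAV, ITGA5, ITGA2 and CLDN12 held in all 14 alternatives to the main fit, while those of ITGB1 (-0.21) and CLDN7 (-0.12) were lost after quantile normalization, that of CLDN7 also without an expression filter (adjusted p = 0.0651). Those of ITGB4, CLDN15 and CLDN4 were the least stable: without an expression filter they were lost (adjusted p = 0.156, 0.0699 and 0.113), as they were in 7, 5 and 6 of the 8 fits that left out 1 library, and for ITGB4 also with a pseudocount of 0.1 (adjusted p = 0.0632). After quantile normalization all 3 were called, at 0.72, 0.59 and 0.61. The cause of these differences was not tested.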

How the results depend on the processing

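Members' changes were recomputed under up to 15 alternatives, 1673 values in all. Of 1153 values of called members, 1075 kept their direction and call, 75 kept the direction but lost the call and 3 reversed. In many of these fits the estimate could not change, only its error: other filters, a replicate block, or a left-out library of a group not compared. The 1075 therefore overstate the stability. All reversals came with quantile normalization: CLDN7 in Combination against DMSO (0.23) and against EPZ (0.13) and ITGA6 in Combination against ENZ (0.025), which were called negative before, and 4 not called before, ITGB1 (0.43) and CDH1 (0.32) in Combination against ENZ, CDH1 in EPZ (0.14) and CLDN7 in ENZ (0.25). Without an expression filter all 71 members are tested, which gave 34 calls for Combination against DMSO (29 higher, 5 lower), 31 against ENZ (23 and 8) and 28 against EPZ (23 and 5), in place of 16, 15 and 14. Of all 26443 genes that fit called 23.7% higher and 20.7% lower against DMSO, 17.3% and 18.9% against ENZ, and 19.2% and 19.1% against EPZ. Leaving out the filter ended the calls of ITGAV (adjusted p = 0.0511), CLDN4 (0.104) and CLDN12 (0.0636) in ENZ, CDH24 (0.12), CDH15 (0.184) and CLDN23 (0.0828) in EPZ, and CDH15 (0.159) and CLDN3 (0.0577) in Combination, all limma adjusted p. Leaving out 1 library gave 10 to 13 calls for ENZ, 8 to 13 for EPZ, 15 to 16 for Combination, 13 to 15 against ENZ, 12 to 15 against EPZ and 6 to 10 for the interaction. Where this left a group with 1 library, that library was assumed to vary like the others. Same-numbered libraries share only a number: the correlations of their deviations ran from -0.0153 to 0.109. With the replicate number as a block the calls were 12, 13, 16, 15, 15 and 10 in the same order, against 12, 12, 16, 15, 14 and 9 without. Depth limits the low members most, since 29 of the 71 stayed under 0.1 FPKM in every library.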
